A study of Mus musculus with 10 samples.

Results

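The genes described here encode the ligands and receptors of axon guidance. They were taken by symbol: every probe annotated with exactly 1 gene symbol that begins with Sema, Plxn, Epha, Ephb, Efna, Efnb or Unc5, or that is Slit1, Slit2, Slit3, Robo1, Robo2, Robo3, Robo4, Ntn1, Ntn4, Dcc, Nrp1 or Nrp2, was kept, and no measured value was used in the choice. This gave 84 of 34967 probes, for 67 of the 18069 genes that have such a probe. The 84 probes split into 39 for 32 ligand genes, 41 for 32 receptor genes and 4 for Unc50, Unc5cl and Plxna4os1, which share the letters of the rule but are not guidance ligands or receptors. Ephb2, Robo3 and Sema3g were not analysed here because no probe carried their symbol alone.

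Total RNA had been hybridized to 1-colour arrays in 5 groups of 2 arrays each. Both groups of embryoid bodies (EBs), which are floating aggregates of differentiating embryonic stem (ES) cells, came from Ainv18 mouse ES cells carrying a doxycycline-inducible bicistronic Pdx1-IRES-Ngn3 construct, and all of them received activin A, and later BMP4 and bFGF with it, before collection on day 13. Dox(−) EBs had no doxycycline and Dox(+) EBs had 1 µg/ml doxycycline (Dox) from day 4. The reference groups were βTC6 cells (a mouse insulinoma line), whole islets, whose age the labels do not give, and whole E15.5 embryonic pancreas. The paper's text calls the islets adult, while a heading in its supplement marks them as E15.5. The EBs are 1 engineered line, their labels give another entry that names activated Notch4 as the induced gene, and no label says whether the 2 biological replicates of a group were separate cultures or animals, so the p-values cover the spread among these arrays alone. The probes named for the induced genes were low in both EB groups: Pdx1 lay between 0.27 and 0.333 and Ngn3 (Neurog3) between 0.447 and 0.557 over the 4 EB arrays, on the scale explained next, so they do not check the labels.

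Semaphorins, ephrins, Slits and netrins are extracellular cues that attract or repel growing axons, and they also guide blood vessels and migrating cells. Secreted class 3 semaphorins act through a neuropilin bound to a plexin, membrane semaphorins bind plexins directly, ephrin-A and ephrin-B ligands on one cell bind EphA and EphB receptor tyrosine kinases on the next, Slits bind Robo receptors, and netrins bind Dcc and the Unc5 receptors. In the pancreas, members of these families are known from studies of endocrine cell clustering, of ephrin signalling between beta cells, and of the innervation and vessels of islets.

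A level is the background-subtracted intensity of a spot divided by the median of its array, so 1 is the median probe, and levels were floored at 0.27. Each difference is a log2 difference of group means from limma, with its standard error (SE), and p was adjusted by the Benjamini-Hochberg method over all probes tested. A probe entered the test if some group had it above background on each of its arrays, and it was called if its adjusted p was under 0.05. A probe at background in the other groups thus entered through the group where it was high, and such a call is no independent support. Of the 84 probes, 76 (64 genes) were tested, 46 were above background on all 10 arrays, and none was saturated. The 8 untested probes were at background in nearly all arrays and leave Sema6b, Sema7a and Ntn1 without a tested probe. Over all probes, the share above background ran from 66.0 to 74.3% per array, and it was 67.2 and 68.1% in Dox(−) EBs against 73.7 and 74.3% in Dox(+) EBs, a difference whose part in the results was not tested. Levels of different probes are not compared, because the brightness of a spot also depends on its probe.

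With induction, the axon guidance probes went both ways, as did all probes tested. Of the 76 tested, 13 were called higher (17.1%) and 23 lower (30.3%) in Dox(+) than in Dox(−) EBs, beside 20.7% higher and 22.5% lower over all probes tested, and 40 were not called. With 1 probe per gene, the one with the highest mean level, 10 genes rose, 19 fell and 35 were not called. The median log2 difference was -0.05 over the 76 probes and -0.03 over all probes. Ligands had 7 probes higher and 11 lower of 34, and receptors 6 higher and 11 lower of 39. The genes that rose included Sema6d and Efna5 (each by 1 of its probes), Efnb3, Unc5c, Epha10, Epha5, Slit2, Ephb1 and Robo1. Those that fell included the secreted semaphorins Sema3b, Sema3c and Sema3e, the receptors Epha1 and Epha2, and Efnb1, Nrp2 and Efna1.

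**Figure D1:**
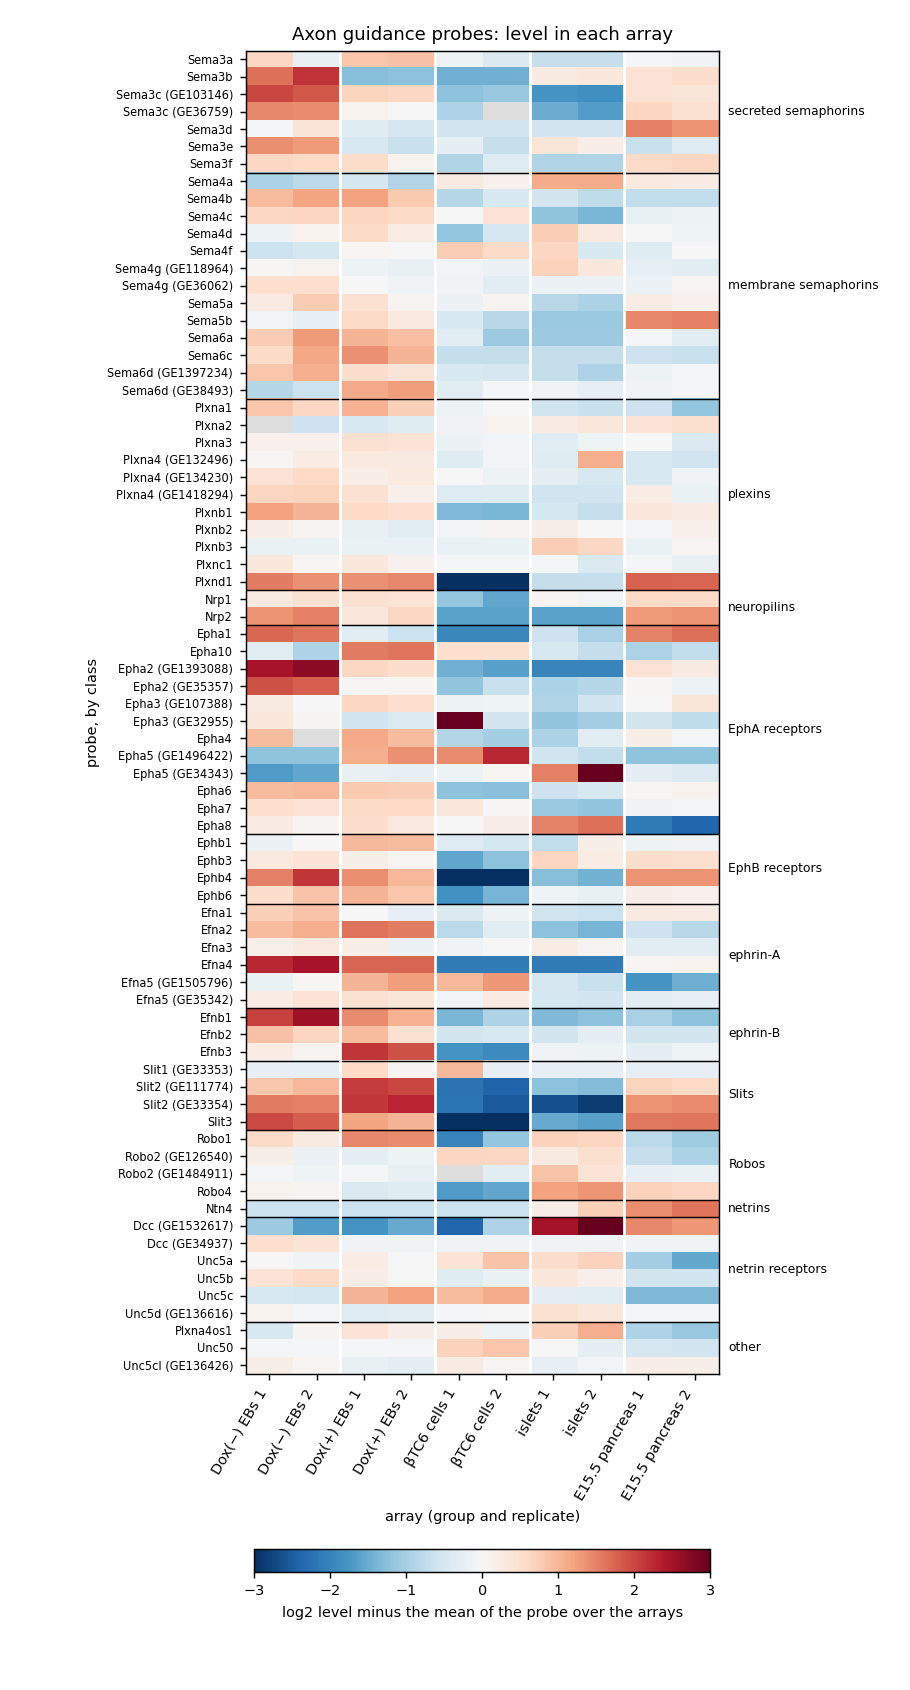
Heat map of the 76 tested axon guidance probes (rows, by class) in the 10 arrays (columns, 2 per group); the colour is the log2 level minus the mean of that probe over the arrays, from -3 (blue) to 3 (red), and grey marks a missing spot. Sema3b, Sema3c and Sema3e are red in Dox(−) EBs, Slit2 and Efnb3 are red in Dox(+) EBs, Plxnd1, Ephb4 and Slit3 are dark blue in βTC6 cells, and a single βTC6 array stands out for Epha3.

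Secreted semaphorins, the diffusible class, had the lowest median of the classes: 5 of 7 tested probes were lower and none was higher (median log2 difference -1.29). Sema3b was at 2.33 and 3.33 without Dox and 0.302 and 0.312 with it, close to the floor. Dox(+) EBs were thus 9.05-fold lower (log2 difference -3.18, SE 0.17, adjusted p = 1.80e-07; -1.48 with a floor of 1 and -2.09 under normexp with quantile normalization), and below islets (0.892 and 0.921) and E15.5 pancreas (0.999 and 1.07) as well. Sema3e, a ligand that binds Plxnd1 without a neuropilin, was at 3.01 and 2.77 without and 0.818 and 0.718 with Dox (log2 difference -1.91, SE 0.17, adjusted p = 6.91e-06). Both Sema3c probes fell, the brighter from 26.9 and 24.2 to 10.6 and 10.2 (log2 difference -1.29, SE 0.09, adjusted p = 1.52e-06) and the other by 1.37 on the log2 scale. In all of these the arrays of the 2 EB groups did not overlap, which is no support beyond their calls. Sema3d fell by 0.60 on the log2 scale at low levels (0.282 to 0.523), while Sema3a (log2 difference 0.65, adjusted p = 0.0509) and Sema3f (-0.29, adjusted p = 0.294) were not called.

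Membrane semaphorins moved both ways, with 2 probes higher and 2 lower of 13 tested. Sema6d, a class 6 transmembrane semaphorin that binds plexin-A1, had probes that moved in opposite directions. The probe GE38493 was at 3.08 and 3.57 without Dox and 12.3 and 13.4 with it, 3.86-fold higher (log2 difference 1.95, SE 0.12, adjusted p = 5.33e-07), and Dox(+) EBs also exceeded every array of βTC6 cells, islets and E15.5 pancreas (4.52 to 5.50). The probe GE1397234, whose listed accession is a different one, fell from 22.4 and 26.8 to 18.0 and 16.5 (log2 difference -0.51, SE 0.11, adjusted p = 0.004). A further Sema6d probe was at background on all 10 arrays. Sema5b, which carries thrombospondin repeats, rose from 1.62 and 1.45 to 2.56 and 2.09 (log2 difference 0.59, SE 0.15, adjusted p = 0.00971), a call that was lost without Dox(−) replicate 2 (log2 difference 0.52) or without Dox(+) replicate 1 (0.45). Of the Sema4g probes, 1 fell by 0.55 on the log2 scale and the other was not called (log2 difference -0.25).

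RefSeq (GRCm38.p6) gives Sema6d 2 start sites far apart on chromosome 2, and the 250 bases before each are shown because its probes moved in opposite directions; which probe reads transcripts of which start is not known from the files. Capitals mark E-boxes (CANNTG), the motif bound by basic helix-loop-helix factors, the class that Ngn3 belongs to. The first window is chr2:124089719-124089968 and the second chr2:124653331-124653580, both on the plus strand, 5′ to 3′:
Sema6d, first start: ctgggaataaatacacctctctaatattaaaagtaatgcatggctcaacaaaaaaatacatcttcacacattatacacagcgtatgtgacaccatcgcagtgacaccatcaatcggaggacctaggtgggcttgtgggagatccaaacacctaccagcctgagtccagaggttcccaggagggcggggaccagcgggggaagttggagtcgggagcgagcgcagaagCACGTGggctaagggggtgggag
Sema6d, second start: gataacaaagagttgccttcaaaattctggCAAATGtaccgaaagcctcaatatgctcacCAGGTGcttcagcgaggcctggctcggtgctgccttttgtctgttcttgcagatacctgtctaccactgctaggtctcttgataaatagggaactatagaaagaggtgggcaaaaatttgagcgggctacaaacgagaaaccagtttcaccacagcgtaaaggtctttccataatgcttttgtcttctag
The first window holds 1 E-box and the second 2, and neither holds CAGATG or CATCTG.

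Few semaphorin receptors were called. Of 11 plexin probes none rose and 2 fell: Plxnb1, a receptor of Sema4d, went from 15.1 and 13.4 to 10.0 and 9.36 (log2 difference -0.55, SE 0.10, adjusted p = 0.00143), and Plxnb2 from 45.9 and 42.0 to 34.2 and 31.9 (log2 difference -0.41, SE 0.11, adjusted p = 0.00998). The Plxnb2 call was lost without Dox(−) replicate 1 (log2 difference -0.34) or without Dox(+) replicate 2 (-0.36). Plxnd1, the Sema3e receptor, was at 12.8 and 11.4 without Dox and 11.3 and 12.0 with it, which overlap. Among neuropilins, Nrp2 fell from 2.10 and 2.35 to 1.04 and 1.27, 1.93-fold lower (log2 difference -0.95, SE 0.15, adjusted p = 0.000409), whereas Nrp1 overlapped between the groups (log2 difference 0.07, adjusted p = 0.718).

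Each ephrin class held genes moving in both directions. Efnb3, a transmembrane ephrin, was at 5.21 and 4.69 without Dox and 19.5 and 16.7 with it, 3.65-fold higher (log2 difference 1.87, SE 0.11, adjusted p = 3.80e-07), and every other array lay at or below 4.11. Efnb1 fell from 5.37 and 7.64 to 3.51 and 2.69 (log2 difference -1.06, SE 0.21, adjusted p = 0.00238), and Efnb2 overlapped between the EB groups. Efna5, a membrane-anchored ligand of EphA receptors, rose on its brighter probe from 5.98 and 7.02 to 14.0 and 16.5 (log2 difference 1.23, SE 0.15, adjusted p = 8.00e-05), and its dimmer probe was not called (log2 difference 0.09). That dimmer probe was at 2.67 and 3.06 without and 3.12 and 2.97 with Dox. The paper's supplement lists Efna5 with nearly equal values in the EB groups, close to this probe, and Epha5 as higher with Dox. Efna2 rose from 5.75 and 6.33 to 9.12 and 8.64 (log2 difference 0.56, SE 0.15, adjusted p = 0.0138), but not after leaving out Dox(−) replicate 1 (log2 difference 0.49) or either Dox(+) array (0.52 and 0.60). The limma call was also lost with a floor of 1 (adjusted p = 0.0581) and when every probe was tested (0.0593), at the same difference. Efna1, a ligand of EphA2, fell from 5.15 and 5.70 to 3.10 and 2.66 (log2 difference -0.92, SE 0.13, adjusted p = 0.000218), and Efna4 from 5.54 and 6.45 to 3.91 and 3.86 (log2 difference -0.62, SE 0.12, adjusted p = 0.00229). The 2 EB groups did not overlap for any of these called ephrins, which is no support beyond their calls, and Efna3 was not called.

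EphA receptors showed the widest range, with 3 probes higher and 3 lower of 12. Epha10, which lacks an active kinase, was at 0.414 and 0.27 in Dox(−) EBs, the second array at background, and at 1.53 and 1.58 in Dox(+) EBs, 4.64-fold higher (log2 difference 2.21, SE 0.21, adjusted p = 1.04e-05; 0.63 with a floor of 1 and 1.31 under normexp with quantile normalization). Both tested Epha5 probes rose. One was at the floor on both Dox(−) arrays and at 1.31 and 1.60 with Dox, at least 5.29-fold higher (log2 difference 2.42, SE 0.24, adjusted p = 1.71e-05); where the lower group is at background, a fold is written as a bound, taken against the dimmest signal that counted as above background. The other, GE34343, went from 0.476 and 0.522 to 1.31 on both arrays (log2 difference 1.39, SE 0.35, adjusted p = 0.00794), but its call was lost without Dox(−) replicate 1 (log2 difference 1.33) or without either Dox(+) array (1.39 and 1.40), and the difference was 0.39 with a floor of 1 and 0.86 under normexp with quantile normalization, neither of them called. Epha1 fell from 3.38 and 3.12 to 0.813 and 0.66, 4.44-fold lower (log2 difference -2.15, SE 0.16, adjusted p = 2.02e-06). Epha2, a receptor known mainly from epithelial cells, fell on both probes, from 4.92 and 4.55 to 1.36 and 1.37 on the leading one (log2 difference -1.79, SE 0.17, adjusted p = 1.11e-05) and by 1.99 on the log2 scale on the other. Epha1 and Epha2 arrays of the EB groups lay far apart, while Epha4, Epha6, Epha7 and Epha8 had log2 differences between -0.21 and 0.25 and were not called.

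Of 4 EphB receptors 1 rose and 1 fell. Ephb1 rose from 0.871 and 0.991 to 1.91 and 1.88 (log2 difference 1.03, SE 0.24, adjusted p = 0.00558). Ephb4, the venous receptor of ephrin-B2, was at 6.39 and 9.93 without and 5.85 and 4.48 with Dox (log2 difference -0.64, SE 0.20, adjusted p = 0.0224), and this call was lost without Dox(−) replicate 2 (log2 difference -0.32) or without Dox(+) replicate 2 (-0.45). The limma call was also lost with a floor of 1 (adjusted p = 0.0899) and when every probe was tested (0.0999), at the same difference. Ephb3 and the kinase-defective Ephb6 were not called.

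Among the Slits and their receptors, Slit2 rose and Slit3 fell. The brighter Slit2 probe was at 16.2 and 16.1 without Dox and 24.3 and 27.4 with it (log2 difference 0.68, SE 0.13, adjusted p = 0.00166), and the second went from 2.52 and 2.84 to 6.17 and 5.72 (log2 difference 1.15, SE 0.13, adjusted p = 3.95e-05). Slit3 fell from 8.60 and 7.65 to 4.92 and 4.40 (log2 difference -0.80, SE 0.12, adjusted p = 0.00027), and Slit1 was at background in Dox(−) EBs and at 0.484 and 0.338 with Dox, not called (adjusted p = 0.17). Robo1, a neuronal Slit receptor, rose from 1.59 and 1.30 to 2.93 and 2.88 (log2 difference 1.02, SE 0.24, adjusted p = 0.00549), a call lost without Dox(−) replicate 2 (log2 difference 0.87) and with a floor of 0.1. Robo4, known from endothelium, fell from 2.80 and 2.74 to 1.93 and 2.03 (log2 difference -0.48, SE 0.11, adjusted p = 0.00423), and both Robo2 probes overlapped between the groups.

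For the netrin system, Unc5c, a receptor that mediates repulsion by netrin, showed the clear change. It was at 3.96 and 3.75 without Dox and 11.0 and 12.5 with it, 3.05-fold higher (log2 difference 1.61, SE 0.10, adjusted p = 6.19e-07), and the Dox(+) arrays overlapped those of βTC6 cells (10.4 and 11.6). Unc5b fell from 5.44 and 6.11 to 4.72 and 4.14 and Unc5d from 4.09 and 3.70 to 2.93 and 3.06, both by 0.38 on the log2 scale (adjusted p = 0.0211 and 0.0113). Either call was lost on leaving out 1 EB array: Unc5b without Dox(−) replicate 2 (log2 difference -0.30) or Dox(+) replicate 2 (-0.29), and Unc5d without Dox(−) replicate 1 (-0.30) or Dox(+) replicate 1 (-0.35). The brighter probe of Dcc, the attractive netrin receptor, overlapped between the groups (0.927 and 0.611 against 0.566 and 0.688), and the other was called lower (0.417 and 0.387 against the floor on both Dox(+) arrays, adjusted p = 0.00372). That other Dcc probe was above background on the Dox(−) arrays alone and entered the test through them, so its call is no independent support. Ntn4, a netrin of basement membranes, was at the floor on all 4 EB arrays. Of the 3 tested probes outside the guidance classes, Unc5cl fell by 0.38 on the log2 scale, and Unc50 and Plxna4os1 were not called.

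**Figure D2:**
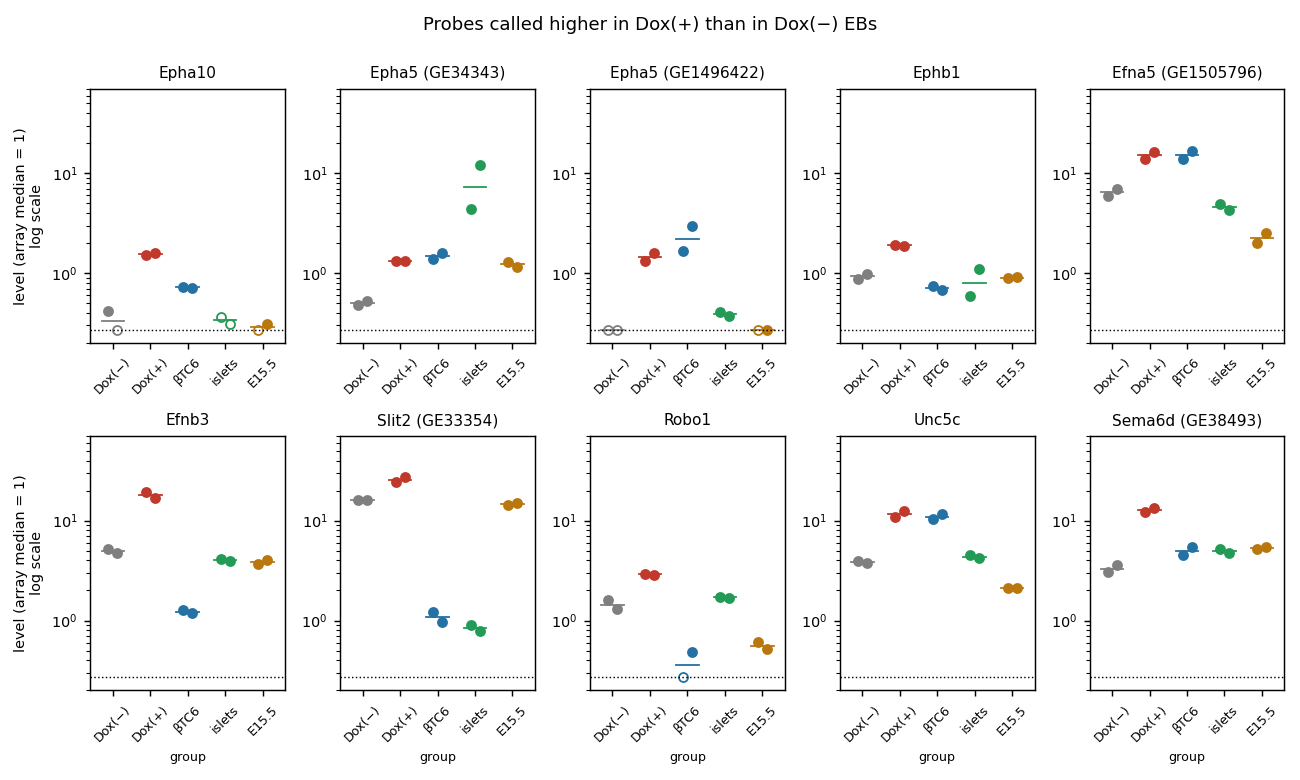
Levels (array median = 1, log axis) of 10 probes called higher with Dox, in each array of the 5 groups; filled points are above background, open points at background, bars show each group's mean log2 level and dots the floor of 0.27. In every panel both Dox(+) points lie above both Dox(−) points, and Sema6d (GE38493), Efnb3 and Slit2 are highest in Dox(+) EBs.

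**Figure D3:**
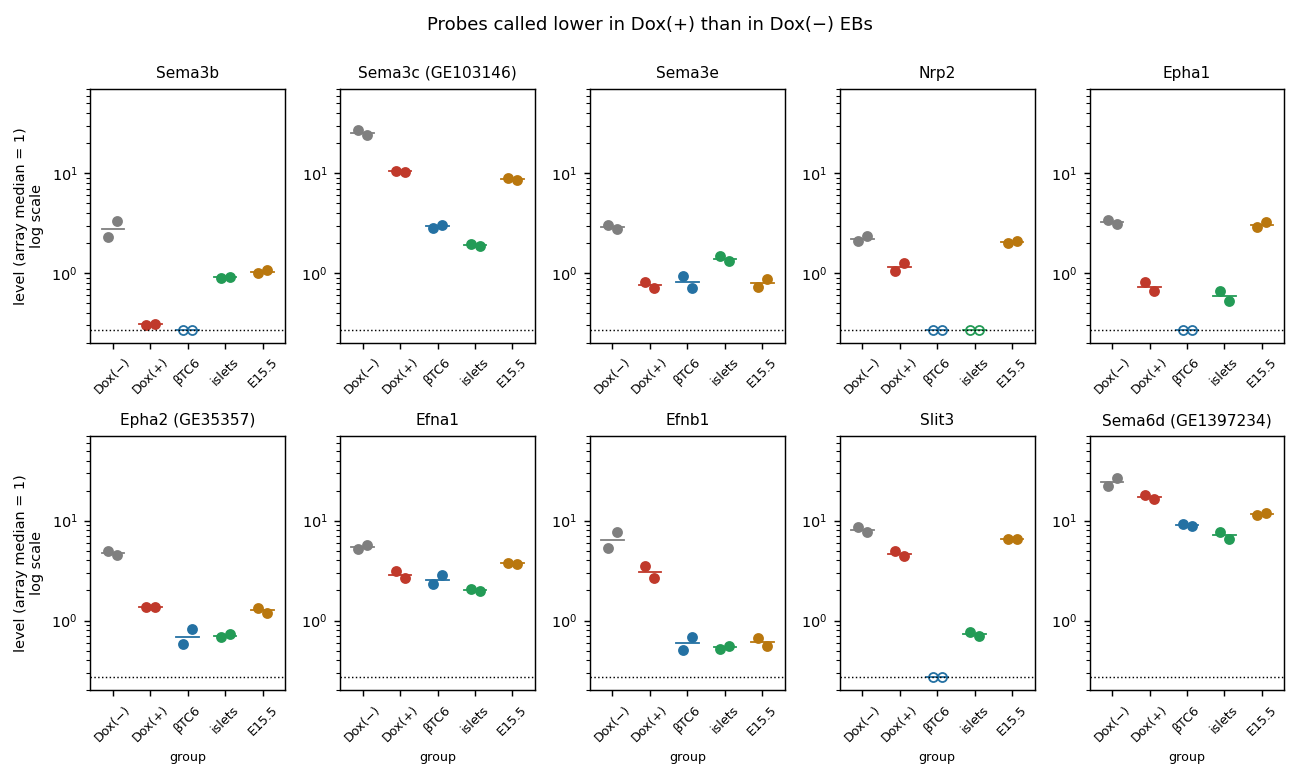
The same plot for 10 probes called lower with Dox, with levels (array median = 1) on a log axis, filled points above background, open points at background, bars at the mean log2 level and 0.27, the floor, dotted. Both Dox(+) points lie below both Dox(−) points in every panel, and the Dox(+) points of Sema3b sit just above the floor.

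Promoter windows were read for the members that have an entry (56 genes, 72 windows of 250 bases before the start, RefSeq, GRCm38.p6). Member windows on a single chromosome were left out, whereas the windows of all genes include that chromosome. An E-box, CANNTG, searched on both strands, is found in 45.8% of these windows and in 66.2% of the windows of all genes. It was present in 2 of the 9 windows of genes called higher only, in 9 of the 19 windows of genes called lower, and in both windows of Sema6d. CAGATG or CATCTG, a form of the E-box that the count above includes, was found in 6.94% of the member windows and 14.4% of all windows, and in none of the 9. The windows of the 2 risen genes with an E-box are shown with those of Unc5c, which rose and has none, and of Epha1 and Sema3e, which fell. They lie at chr4:124881535-124881784 (plus strand), chr16:72662899-72663148 (plus), chr3:141465314-141465563 (plus), chr6:42373269-42373518 (minus) and chr5:14025026-14025275 (plus), 5′ to 3′ on the strand of the gene, with E-boxes in capitals:
Epha10: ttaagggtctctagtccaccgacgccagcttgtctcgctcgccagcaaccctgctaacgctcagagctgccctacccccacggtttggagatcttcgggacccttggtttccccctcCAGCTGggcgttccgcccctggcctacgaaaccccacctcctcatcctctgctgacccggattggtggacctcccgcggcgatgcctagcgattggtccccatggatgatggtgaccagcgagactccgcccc
Robo1: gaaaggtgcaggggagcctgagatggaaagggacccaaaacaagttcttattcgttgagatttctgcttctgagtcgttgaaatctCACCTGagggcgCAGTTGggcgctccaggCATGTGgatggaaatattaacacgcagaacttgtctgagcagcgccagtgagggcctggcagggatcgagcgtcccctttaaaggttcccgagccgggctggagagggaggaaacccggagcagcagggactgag
Unc5c: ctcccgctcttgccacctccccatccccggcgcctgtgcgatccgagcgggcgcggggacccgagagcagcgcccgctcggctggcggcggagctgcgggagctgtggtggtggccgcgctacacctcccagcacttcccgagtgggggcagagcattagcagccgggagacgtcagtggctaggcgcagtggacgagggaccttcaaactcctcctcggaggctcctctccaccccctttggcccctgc
Epha1: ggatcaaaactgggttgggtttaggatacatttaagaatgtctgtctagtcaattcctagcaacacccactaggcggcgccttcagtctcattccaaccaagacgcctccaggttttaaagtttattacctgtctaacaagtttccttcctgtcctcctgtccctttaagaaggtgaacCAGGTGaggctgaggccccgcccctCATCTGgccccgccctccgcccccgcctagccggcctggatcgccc
Sema3e: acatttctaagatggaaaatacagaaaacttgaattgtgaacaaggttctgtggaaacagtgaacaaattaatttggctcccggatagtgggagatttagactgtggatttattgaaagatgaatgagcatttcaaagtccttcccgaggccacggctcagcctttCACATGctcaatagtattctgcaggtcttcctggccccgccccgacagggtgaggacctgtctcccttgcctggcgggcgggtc
Epha10 has 1 match, Robo1 3, Epha1 2, of which 1 is CATCTG, and Sema3e 1; a match is only these letters in this window.

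Other genes of axon guidance, a list of 61 adhesion molecules, intracellular effectors and further cues of which 56 had a probe, were counted beside them. Of 84 tested probes 37 were higher (44.0%), 18 lower (21.4%) and 29 not called in Dox(+) EBs, beside 20.7% higher and 22.5% lower over all probes, and their median log2 difference was 0.25. Nfasc, an adhesion molecule of the axon, was at the floor on both Dox(−) arrays and at 15.1 and 14.2 with Dox on its brightest probe. Crmp1, a collapsin response mediator of semaphorin signalling, rose from 1.50 and 1.14 to 27.1 and 23.2 (log2 difference 4.26), the kinase Pak3 from 0.538 and 0.676 to 15.2 and 16.6 (4.72), and L1cam, an adhesion molecule that associates with neuropilin-1, from 0.538 and 0.561 to 5.79 and 5.57 (3.37). Dscam, a netrin receptor, was at 0.967 and 0.988 without and 7.90 and 7.61 with Dox (2.99). Those that fell included 1 of 2 Met probes (from 4.92 and 5.15 to 1.24 and 1.10) and Ptprf (from 74.2 and 70.6 to 38.9 and 34.9 on its brighter probe).

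Cell type markers moved between the EB groups as well. Of 14 neuronal probes 12 were higher and none lower, the summed level of the 10 genes going from 5.20 and 5.41, with 5 genes at the floor, to 174.5 and 158. The neuronal sums were higher still in βTC6 cells (253.8 and 280.9), an insulinoma line. A rise in this list therefore does not show that neurons were present. All 8 endocrine markers rose, from sums of 5.73 and 5.63, with Chgb, Insm1 and Sst at the floor, to 415.8 and 379.6. Of 10 mesenchymal probes 7 fell and 2 rose (sums of 815.3 and 856 against 352.8 and 362.8), all 3 epithelial markers fell (253.7 and 243.5 against 119 and 98.4), and 2 of 3 blood markers fell (104.9 and 96.1 against 1.37 and 1.20). Endothelial markers had 3 of 9 probes higher and none lower (sums of 68.4 and 66.0 against 78.4 and 74.7), and the glial sums were below 5 in both groups with Olig1 and Olig2 at the floor. The part of these lists in the changes of the guidance genes was not tested, and in such bulk RNA fewer cells of a type and less RNA per cell cannot be told apart.

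Against the reference groups, the question is how the levels in Dox(+) EBs compare with those of insulin-producing cells and of pancreas. By slide number, βTC6 cells shared a range with islets, while EBs and E15.5 pancreas each had another, so the effects of slide range and tissue cannot be told apart except between βTC6 cells and islets. These comparisons share arrays, and each is given by its own values.

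Against βTC6 cells, guidance probes were mostly higher in Dox(+) EBs: 42 of 76 were called higher (55.3%) and 9 lower (11.8%), beside 25.5% and 37.5% of all probes tested. Without Dox(+) replicate 1 the number lower was 4, and without Dox(+) replicate 2 it was 5. All 4 EphB, all 3 ephrin-B and both neuropilin probes were higher. Efnb2 among them was at background on both βTC6 arrays and entered the test through the EB arrays. Plxnd1 was at background on both βTC6 arrays (0.316 and 0.27) and at 11.3 and 12.0 in the Dox(+) group, hence at least 37.1-fold higher there (log2 difference 5.32, SE 0.11, adjusted p = 8.06e-11). That bound belongs to the main processing, as the fold was 15.7 under normexp with quantile normalization and 11.7 with a floor of 1. Slit2 was at 1.23 and 0.973 in βTC6 cells on the brighter probe, so that Dox(+) EBs were 23.6-fold higher (log2 difference 4.56, SE 0.13, adjusted p = 6.56e-10), and at least 18.9-fold higher on the other. The latter fold was 8.93 under normexp with quantile normalization and 5.94 with a floor of 1. Slit3 and Ephb4 were at background on both βTC6 arrays and at least 14.8-fold higher and at least 16.3-fold higher in Dox(+) EBs, and Efnb3 was 14.7-fold higher. Sema4a, a membrane semaphorin known from immune cells, was lower in Dox(+) EBs (1.07 and 0.827 against 1.85 and 1.66, log2 difference -0.90, SE 0.14, adjusted p = 0.000256). So was the brighter Robo2 probe (1.69 and 1.85 against 3.21 and 3.16, log2 difference -0.85, SE 0.15, adjusted p = 0.000539), while the other Robo2 probe was not called. Unc50, a Golgi protein outside the guidance classes, had a log2 difference of -0.80, which quantile normalization, with or without normexp background correction, turned to 0.13. Mesenchymal markers moved with this comparison (10 of 10 probes higher, with sums of 352.8 and 362.8 in Dox(+) EBs against 6.28 and 6.47 in βTC6 cells, where 5 of 10 genes were at the floor), and endothelial markers too (8 of 9 higher, against 13.0 and 15.0). All 8 endocrine probes were lower in Dox(+) EBs (415.8 and 379.6 against 991.9 and 982.3), and neuronal probes went both ways (5 higher and 7 lower of 14), and the part of these lists was not tested.

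Against islets, 45 of 76 probes were higher in Dox(+) EBs (59.2%) and 16 lower (21.1%), beside 36.4% and 31.6% of all probes. Slit2 had the largest difference, at 0.904 and 0.779 in islets on its brighter probe and 30.7-fold higher in Dox(+) EBs (log2 difference 4.94, SE 0.13, adjusted p = 2.84e-10), with 10.0-fold on the other. Efna4 was at the floor on both islet arrays and at least 14.4-fold higher (log2 difference 3.85, SE 0.12, adjusted p = 1.23e-09). Its fold was 7.04 under normexp with quantile normalization, 3.88 with a floor of 1 and 30.7 with a floor of 0.1. The largest difference the other way was in Dcc, at 11.1 and 34.5 in islets and 0.566 and 0.688 in the Dox(+) group, which was 31.3-fold lower (log2 difference -4.97, SE 0.52, adjusted p = 9.11e-06), though the islet arrays themselves lay far apart and the fold was 55.4 without islet replicate 1 and 17.7 without islet replicate 2. Sema4a was at 3.33 on both arrays in islets and 1.07 and 0.827 in Dox(+) EBs (log2 difference -1.82, SE 0.14, adjusted p = 1.01e-06). Of the 4 Robo probes 3 were lower in Dox(+) EBs, Robo4 with 5.99 and 6.51 in islets against 1.93 and 2.03 (log2 difference -1.66, SE 0.11, adjusted p = 2.25e-07), and Robo1 was higher. Epha5 could not be given a direction: GE34343 was 5.60-fold lower in Dox(+) EBs and GE1496422 3.71-fold higher. The first fold became 9.29 without islet replicate 1 and 3.37 without islet replicate 2, and with a floor of 1 the second difference was 0.53 on the log2 scale and not called. Of the marker lists, all 4 acinar probes were lower in Dox(+) EBs (sums of 16.1 and 20.9 against 1211 and 1047 in islets), 6 of 8 endocrine probes were lower and none higher, 8 of 10 mesenchymal probes were higher and 1 lower (352.8 and 362.8 against 86.1 and 86.4), and 9 of 14 neuronal probes were higher and 2 lower. Endothelial probes went both ways (4 higher and 3 lower of 9), and the part of these lists was not tested.

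Against E15.5 pancreas, 37 of 76 probes were higher in Dox(+) EBs (48.7%) and 18 lower (23.7%), beside 33% and 26.9%. Ephrins were higher almost throughout, with 5 of 6 ephrin-A and 3 of 3 ephrin-B probes. Efnb2 among them was at background on both E15.5 arrays and entered the test through the EB arrays. Efna5 was at 2.01 and 2.50 in E15.5 pancreas against 14.0 and 16.5 in the Dox(+) group, 6.77-fold higher (log2 difference 2.76, SE 0.15, adjusted p = 1.10e-07). Epha8, a receptor known from the midbrain, was at 1.12 and 0.947 against 7.05 and 5.97 (log2 difference 2.65, SE 0.13, adjusted p = 6.10e-08) and Unc5c at 2.12 and 2.11 against 11.0 and 12.5 (log2 difference 2.47, SE 0.10, adjusted p = 1.77e-08). The arrays of the 2 groups did not overlap for Efna5, Epha8 or Unc5c, which were picked as the largest called differences. On its brighter probe Dcc was 8.10-fold lower in Dox(+) EBs than in E15.5 pancreas, where it was at 5.32 and 4.80 (log2 difference -3.02, SE 0.52, adjusted p = 0.000504). The other Dcc probe was at the floor in both groups. Ntn4 was at the floor in Dox(+) EBs and at 1.12 and 1.30 in E15.5 pancreas, at least 4.47-fold lower, and Epha1 was at 2.88 and 3.27 in E15.5 pancreas and 4.18-fold lower in Dox(+) EBs. For Ntn4 the fold was 2.51 under normexp with quantile normalization and 1.21 with a floor of 1. The Dox(−) arrays of Epha1 overlapped those of E15.5 pancreas. All 4 acinar probes were lower in Dox(+) EBs (sums of 16.1 and 20.9 against 655.7 and 629.8), 11 of 14 neuronal probes were higher and none lower (174.5 and 158 against 23.5 and 19.8), 7 of 8 endocrine probes were higher and 1 lower (415.8 and 379.6 against 169.3 and 176.4), and 7 of 10 mesenchymal probes were lower and 1 higher (352.8 and 362.8 against 559.4 on both arrays). Of 3 glial probes 2 were lower, among them S100b (0.367 and 0.34 against 12.7 and 13.1), and 3 of 9 endothelial probes were lower and 1 higher. The part of these lists in the differences was not tested.

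**Figure D4:**
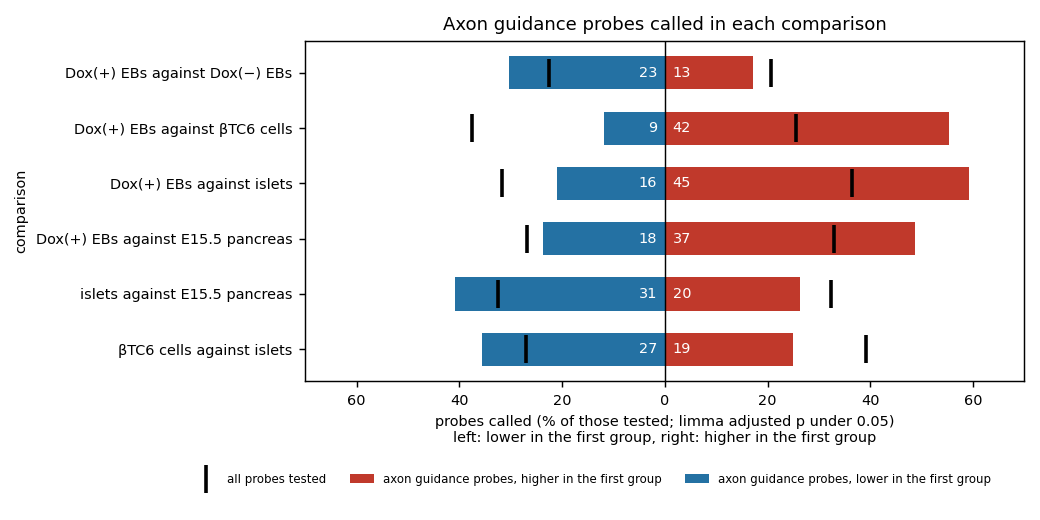
Share of the 76 tested axon guidance probes called higher (red, to the right) and lower (blue, to the left) in the first group of each of the 6 comparisons, in percent, with the number of probes in the bars; black marks are the share over all probes tested. The 42 probes higher and 9 lower against βTC6 cells lie farthest from the marks, while the 13 higher with Dox lie near theirs.

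Islets and E15.5 pancreas share no array with the EB comparison. Islets had 20 probes higher (26.3%) and 31 lower (40.8%), beside 32.4% and 32.5% of all probes. Receptors of Slits and netrins were on the higher side in islets, with 4 of 4 Robo probes and 5 of 6 Dcc and Unc5 probes, whereas 3 of 4 Slit probes and 5 of 7 secreted semaphorin probes were lower. Epha8 was at 13.6 and 15.4 in islets against 1.12 and 0.947 in pancreas, 14.0-fold higher (log2 difference 3.81, SE 0.13, adjusted p = 2.16e-09). Slit2 was 17.5-fold lower in islets (log2 difference -4.13, SE 0.13, adjusted p = 9.75e-10), Slit3 8.91-fold lower (0.768 and 0.7 against 6.48 and 6.60), and Nrp2, at the floor on both islet arrays, at least 7.56-fold lower. The Nrp2 fold was 3.91 under normexp with quantile normalization, 2.04 with a floor of 1 and 13.3 with a floor of 0.1. Epha5 GE34343 was at 4.42 and 12.2 in islets against 1.29 and 1.16 in pancreas (log2 difference 2.59, SE 0.35, adjusted p = 6.74e-05), a difference of 3.32 without islet replicate 1 and 1.85 without islet replicate 2. The other tested Epha5 probe was not called. The brighter Dcc probe was called higher in islets (log2 difference 1.95, SE 0.52, adjusted p = 0.00675), but not without islet replicate 2 (log2 difference 1.13) or without E15.5 replicate 2 (1.88). The other was at the floor in both groups. Mesenchymal markers were lower in islets by 9 of 10 probes (sums of 86.1 and 86.4 against 559.4 on both arrays). All 8 endocrine probes were higher in islets (1108 and 763.1 against 169.3 and 176.4), as were 7 of 14 neuronal probes, with none lower (68.2 and 69.3 against 23.5 and 19.8), and 2 of 4 acinar probes, while 4 of 9 endothelial probes were lower and 2 higher. The part of any of these lists was not tested. Across the 76 member probes, the islet minus E15.5 difference and the Dox difference had a Pearson r of 0.32 and a Spearman rho of 0.37, beside 0.25 and 0.23 over 28111 probes; this is a description across probes, which are not independent.

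βTC6 cells and islets, the pair on slides of the same range, differed in 19 probes higher (25.0%) and 27 lower (35.5%) in βTC6 cells, beside 39.1% and 27% of all probes. The other Dcc probe being at the floor in both groups, the brighter was at 0.377 and 1.02 in βTC6 cells, the first array at background. It was lower there than in islets, where it was at 11.1 and 34.5 (log2 difference -4.98, SE 0.52, adjusted p = 8.71e-06). Leaving out either array of either group moved that difference, to between -4.16 (without islet replicate 2) and -5.80 (without islet replicate 1). Plxnd1 was at least 8.59-fold lower in βTC6 cells, and Robo4 was at 0.805 and 0.884 against 5.99 and 6.51 (log2 difference -2.89, SE 0.11, adjusted p = 3.65e-09). The Plxnd1 fold was 4.23 under normexp with quantile normalization and 2.7 with a floor of 1. Efna5 ran the other way, at 13.8 and 16.9 in βTC6 cells and 4.88 and 4.33 in islets (log2 difference 1.73, SE 0.15, adjusted p = 2.11e-06), as did Sema4c (17.2 and 23.0 against 7.40 and 6.58, log2 difference 1.51, SE 0.13, adjusted p = 1.61e-06). Epha5 had probes called in opposite directions. GE1496422 was at 1.66 and 2.96 in βTC6 cells against 0.41 and 0.37 in islets (log2 difference 2.5, and 1.15 with a floor of 1). GE34343 was at 1.39 and 1.59 against 4.42 and 12.2 (log2 difference -2.30). That difference was -3.03 without islet replicate 1 and -1.57 without islet replicate 2. Endothelial sums were 13.0 and 15.0 in βTC6 cells and 82.3 and 78.4 in islets, with 7 of 9 probes lower and none higher in βTC6 cells. All 10 mesenchymal probes (sums of 6.28 and 6.47 against 86.1 and 86.4) and all 4 acinar probes (1.38 and 1.49 against 1211 and 1047) were lower as well, 12 of 14 neuronal probes were higher and 1 lower (253.8 and 280.9 against 68.2 and 69.3), and 5 of 8 endocrine probes were higher and 3 lower. The part of these lists in the guidance values was not tested. Without islet replicate 2 only 13 probes were called higher in βTC6 cells, within 1.5 times of the 19.

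**Figure D5:**
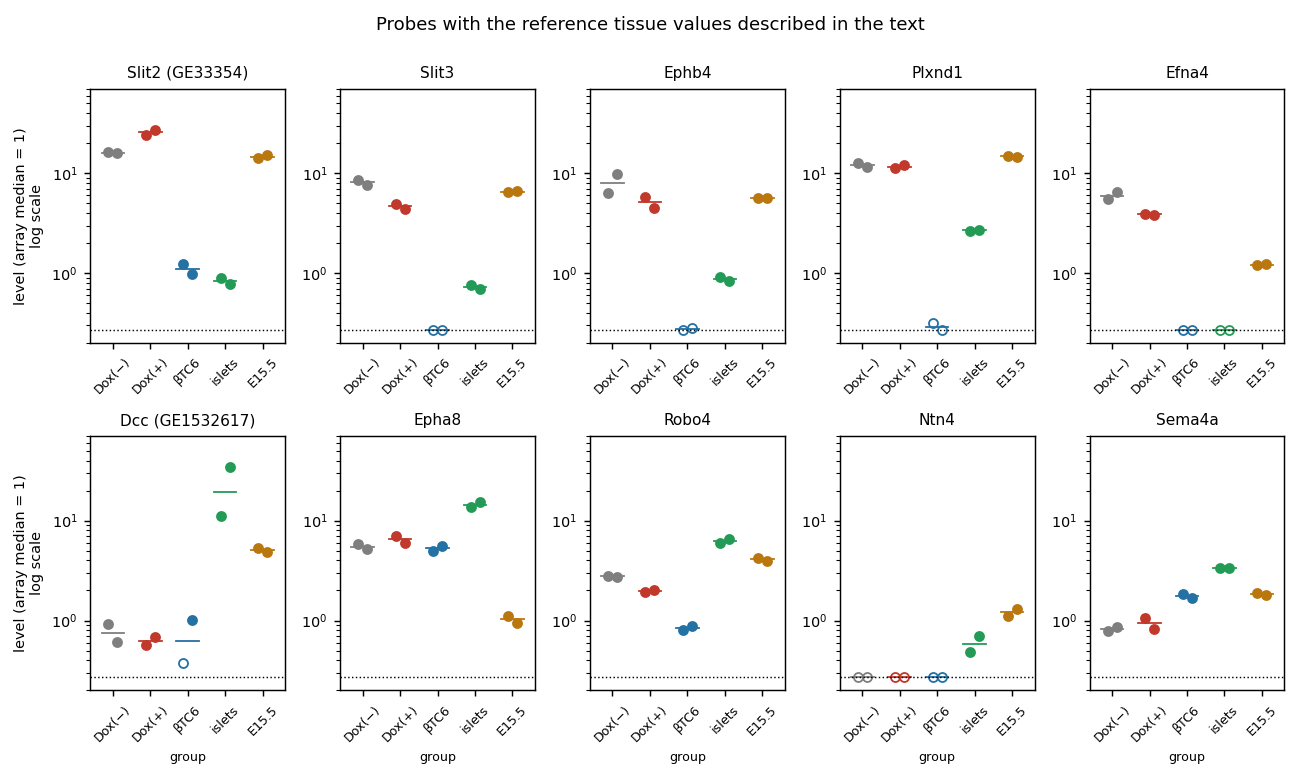
Levels (array median = 1, log axis) in each array of 10 probes named in the comparisons with reference groups; filled points are above background, open points at background, bars show group means of the log2 level and dots mark 0.27, the floor. Slit2, Slit3, Ephb4 and Plxnd1 lie lower in βTC6 cells and islets than in both EB groups and E15.5 pancreas. Dcc (brighter probe only) and Epha8 are highest in islets, and Ntn4 is at the floor in EBs and βTC6 cells.

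Ordered by mean level, Plxnd1 ran E15.5 pancreas, Dox(−) EBs, Dox(+) EBs, islets and βTC6 cells, with overlap only between the EB groups, and Slit2 ran Dox(+) EBs, Dox(−) EBs, E15.5 pancreas and then βTC6 cells and islets, whose order depends on the probe. Over all 76 tested probes the highest group was Dox(−) EBs for 29, Dox(+) EBs for 19, islets for 12, and βTC6 cells and E15.5 pancreas for 8 each. The highest group is that of the highest mean, whether or not a difference was called. The same count was not made over all probes, so it does not set the guidance genes apart. Of the 19 highest in Dox(+) EBs, 8 are ligands and 11 receptors.

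Several genes with more than 1 probe gave no single direction. Besides Sema6d and Epha5, Slit2 differed between its probes for βTC6 cells against islets (log2 difference 0.38 for GE33354 and -1.04 for GE111774), Sema3c for Dox(+) EBs against E15.5 pancreas (0.25 and -0.49) and Plxna4 for islets against E15.5 pancreas (0.90 and -0.60). The Plxna4 probe that was called higher, GE132496, was at 0.638 and 1.75 in islets, and its difference was 0.17 without islet replicate 2. Its call was lost under 16 of 21 alternatives, quantile normalization and the leaving out of single arrays of other groups among them. The Plxna4 probe called lower, GE1418294, lost its call without E15.5 replicate 1 (-0.39). The positive Slit2 difference was lost without βTC6 replicate 1 (log2 difference 0.21) or islet replicate 2 (0.27), and with a floor of 1 the negative one was 0. The positive Sema3c difference was lost on leaving out any 1 of the Dox(+) or E15.5 arrays (0.21 to 0.28) and was 0.06 after quantile normalization, and the negative one was lost without Dox(+) replicate 2 (-0.44) or E15.5 replicate 1 (-0.39). A single spot of Epha3 stood apart: probe GE32955 was at 40.2 and 1.05 in βTC6 cells, and the other Epha3 probe was at 0.642 and 0.650 on the same arrays.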

How the data were processed

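RNA from 10 samples, 2 per group in 5 groups, had been hybridized to CodeLink Mouse Whole Genome arrays and scanned with CodeLink Expression Analysis 4.1.0.29054 (per the labels). The values are scaled intensity as deposited: the authors' software subtracted the local background median from each spot mean and divided by the array median. Each array has 36227 spots, of which 1260 control spots were left out. Masked, contaminated and irregular spots were set missing (5 of the member spots), and saturated spots were kept. The probe filter and the GeneSpring 7 step of the study's methods could not be repeated here.

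Probes were named from the platform annotation, and all 84 member probes matched the GRCm38.p6 gene table with the same symbol. Of all probes, 21615 had 1 symbol, 681 several and 12671 none. One probe that lists a member-like symbol together with a second gene was left out.

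Levels were floored at 0.27 and log2 transformed. Using limma 3.58.1 (R 4.3.3; lmFit, then eBayes with trend and robust), group means were estimated jointly from the 10 arrays for 28259 probes, with Benjamini-Hochberg adjustment and a threshold of 0.05. Where both arrays of the dimmer group were at background or at the floor, a fold is a bound. Genes given with values per array are, in each class, up to 4 called higher and 4 lower with Dox by smallest adjusted p of the probe with the highest mean level, the 3 largest called differences each way in every other comparison, and every gene with probes called in opposite directions. The other values named, among them the second probes of genes, members not called, the partner and marker genes and Epha3, were picked after their values were seen. The members, lists and tests were chosen with earlier results of these data known.

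Promoter windows came from RefSeq. The alternatives comprised 2 scalings (quantile normalization, and normexp with offset 50 followed by it), a floor of 0.1 or of 1, testing every probe or only those above background in all arrays, a fit to the EB arrays only, no trend and no robust weights, contaminated and irregular spots kept, a replicate block, a 2-fold minimum and each array left out. Plots were drawn with matplotlib 3.10.9 under Python 3.11.15, from tables made with pandas 2.3.3. The number of arrays limits the precision, and on the median spot the net signal exceeded background by a factor of 1.66 to 2.63.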

Additional observations from a re-analysis of the deposited data

How the results depend on the processing

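Of 66 differences given for named probes, 1235 of 1322 values under 21 alternatives kept their direction and call, 83 kept the direction but not the call, 2 were exactly 0 with a floor of 1 (Slit2 GE111774 for βTC6 cells against islets and Plxna4 GE1418294 for islets against E15.5 pancreas), and 2 reversed: Unc50 between Dox(+) EBs and βTC6 cells was -0.80 on the log2 scale and 0.13 under quantile normalization and 0.13 under normexp with quantile normalization. That scaling moved the median log2 difference of all probes from -0.107 to 0 against βTC6 cells and from 0.124 to 0 for βTC6 cells against islets. The fold moved by over 1.5 times for 17 differences with a floor of 1, 15 under normexp with quantile normalization and 3 with a floor of 0.1, and for 7 on leaving out 1 array, all of Dcc, Epha5 GE34343 or Plxna4 GE132496. With 2 arrays per group, differences of less than a doubling were those most often lost, and 22 differences named were below a 2-fold minimum. Calls were lost for 8 differences with a floor of 1 and for 6 when every probe was tested.

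Counts of member probes moved by over 1.5 times as follows, where fewer probes tested or a larger difference required is the construction of the setting. Among probes above background on all arrays, 13 were lower with Dox, 23 higher against βTC6 cells, 26 higher against islets, 8 lower against E15.5 pancreas, 15 lower in islets against E15.5 pancreas, 15 lower in βTC6 cells against islets and 18 partner probes higher with Dox. With a 2-fold minimum, 8 were lower with Dox, 0 lower against βTC6 cells (9 were lower without the minimum by limma), 7 lower against islets, 20 higher and 7 lower against E15.5 pancreas, 9 higher and 18 lower in islets against E15.5 pancreas, 6 higher and 17 lower in βTC6 cells against islets, and 24 partner probes higher and 3 lower. With a floor of 1, 9 were higher and 17 lower in βTC6 cells against islets.

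Leaving out each array in turn gave 10 to 15 higher and 18 to 24 lower with Dox, 38 to 43 and 4 to 8 against βTC6 cells, 41 to 47 and 14 to 17 against islets, 32 to 38 and 13 to 18 against E15.5 pancreas, 18 to 21 and 25 to 33 in islets against E15.5 pancreas, 13 to 21 and 27 to 30 in βTC6 cells against islets, and 32 to 39 and 11 to 19 for partner probes. The 11 lower partner probes, of 18, came without Dox(−) replicate 1 or without Dox(+) replicate 2.

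Same-numbered replicates of different groups had deviations that correlated between -0.071 and 0.065, so they share only a number, and a replicate block gave 14 probes higher and 23 lower with Dox, against 13 and 23.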
